A study of Rattus norvegicus with 2 samples.

Results

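Il1b, Il1r2, Il1rl1 and Il6 code for 4 proteins of the interleukin 1 and interleukin 6 systems, and their counts were followed through marker-gated myeloid, neutrophil-stage and stromal cells of the rat zygomatic maxillary suture. They are 4 of the 22154 genes listed in either count table. The 4 genes were selected on measured values of the same tables, namely their levels by cell type and library, so every value below is a description and none is tested. The suture is the fibrous joint between cheek bone and upper jaw, and it was taken from 4-week-old rats. The distraction library (1 library) came from sutures stretched for 7 days by a W-shaped spring distractor, bent from nickel-titanium wire 0.4 mm thick and set to 20 g at the start. The sham library (1 library) came from rats whose bones were drilled without a distractor being placed. No transgene or mutant allele is named in the labels, and the sources used here do not say which strain was used or how many animals were pooled. Each group being 1 library, differences between the groups could not be set against replicates. Intervals are at 95% and cover counting error only.

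Interleukin 1 beta is made as an inactive precursor in activated myeloid cells, cut by caspase 1 in an inflammasome, and signals through the receptor Il1r1 with its accessory chain Il1rap. Il1r2 binds the same cytokine but lacks a signalling domain, so it acts as a decoy, and Il1rl1, also called ST2, is the receptor for the related alarmin interleukin 33. Interleukin 6 is a target of interleukin 1 signalling in stromal cells and macrophages, and in bone both cytokines are known for promoting osteoclast formation.

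The cells kept numbered 4037 in the distraction library, at a median depth of 4161 distinct transcript molecules (UMIs), and 5183 in the sham library, at a median depth of 3033. Cells were placed in classes by marker genes that exclude the 4 members, and 18.5% of distraction and 26.2% of sham cells met no gate. The shallowest deposited cell had 125 UMIs in the distraction and 920 in the sham library, and 601 deposited distraction cells lay below the sham minimum. The libraries shared 22 cell barcodes. Levels are UMIs per 1000000 UMIs of a class (CPM), and a gene was called when its CPM differed 1.5-fold or more between the libraries. Percentages of genes called refer to genes with at least 50 CPM in 1 library and 30 UMIs over both.

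The 250 bases before the annotated start of Il1b and Il6 are shown because both genes were high in monocytes and low in B cells, and because the Il6 window holds letters of several known inflammatory motifs. They are from RefSeq (build GRCr8), whereas the counts rest on Rnor_6.0, so the positions belong to the sequences and not to the counts. The Il1b window is chr3:137036582-137036831 and the Il6 window chr4:5894576-5894825, both on the minus strand, written 5′ to 3′ with motif matches in capitals.
Il1b: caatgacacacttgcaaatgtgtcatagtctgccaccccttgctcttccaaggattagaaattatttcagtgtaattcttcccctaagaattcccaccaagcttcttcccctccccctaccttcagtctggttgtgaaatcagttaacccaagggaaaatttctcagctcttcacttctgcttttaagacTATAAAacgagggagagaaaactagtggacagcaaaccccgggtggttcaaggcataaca
Il6: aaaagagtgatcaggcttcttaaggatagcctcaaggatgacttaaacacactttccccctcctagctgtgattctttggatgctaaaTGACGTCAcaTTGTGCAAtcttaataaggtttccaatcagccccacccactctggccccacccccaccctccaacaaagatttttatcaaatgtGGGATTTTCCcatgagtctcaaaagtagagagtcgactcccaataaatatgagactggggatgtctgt
Both strands were searched for the NF-kB motif (3 G, any 2 bases, 3 T and 2 C, in this order), the C/EBP motif TTGNGCAA, the CRE motif TGACGTCA, the AP-1 motif TGANTCA, the PU.1 motif GAGGAA, the GATA motif AGATAA and the TATA motif TATAAA. The Il6 window held an NF-kB match at 68 to 59 bases before the start, a C/EBP match at 152 to 145 and a CRE match at 162 to 155. Of 33469 windows of the same length in the table, 1.3% held this NF-kB motif, 2.29% the C/EBP letters and 1.59% the CRE letters. The Il1b window held 1 match, the TATA letters at 60 to 55 bases before the start, which 12.9% of windows hold. No 2 motifs overlapped, and a match is a run of letters, not a measured binding site.

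Il1b, the ligand, was most abundant in late neutrophils, monocytes and macrophages. Over all kept cells it stood at 2559 CPM in the distraction library, against 1693 CPM in the sham library, a 1.51-fold difference (1.495 to 1.529), and 14.7% of genes differed 1.5-fold or more in this comparison. Of the members, Il1b and Il1r2 were called over all cells. Neutrophil-lineage cells made up 31.2% of the distraction and 15.6% of the sham library, so the whole-library values also carry this difference in make-up.

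Within the neutrophil lineage Il1b rose steeply along the stages in both libraries. Its level was 192 CPM in distraction and 273 CPM in sham granulocyte progenitors, which carry primary granule protease genes such as Mpo and Elane. It was 341 and 457 CPM in the defensin-rich stage, and 1660 and 2021 CPM in the stage with the secondary granule genes Ngp and Lcn2. In the stage with the gelatinase and collagenase genes Mmp9 and Mmp8 it reached 8113 and 6953 CPM, and in mature cells with Ccl6 and Cxcr2 it reached 16234 and 16727 CPM. Mature cells thus exceeded progenitors 84.7-fold in the distraction and 61.3-fold in the sham library by CPM. Progenitors were deeper, at medians of 32350 and 7899 UMIs against 2612.5 and 2696 in mature cells. Among cells with an Il1b UMI the median count was 2 in progenitors of either library and 35 and 36 in mature cells. The stage order was the same in both libraries and no interval of neighbouring stages overlapped within a library.

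Between the libraries no neutrophil stage was called for Il1b. The ratio of distraction to sham was 0.971 (0.941 to 1.001) in mature cells, 1.17 (1.13 to 1.21) in the Mmp8 and Mmp9 stage and 0.821 (0.783 to 0.861) in the Ngp and Lcn2 stage. It was 0.746 in the defensin stage and 0.702 in progenitors, where 1 cell held 32.1% of the distraction and another 46.3% of the sham counts. For the whole lineage of 1261 distraction and 810 sham cells the ratio was 0.911 (0.893 to 0.929), and none of the members with a usable count was past 1.5-fold there, where 2.11% of genes were. Il1rl1 had 5 distraction and 4 sham UMIs in the lineage. Taken per cell, the mean level of Il1b in the lineage was 1.18-fold higher in the distraction library, so the direction turned with the weighting of cells. Mature cells were 21.1% of distraction and 16.5% of sham lineage cells, but 6.70% of the lineage's UMIs in either library, and the part of this make-up in the turn was not tested.

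To compare cells at equal depth, each was thinned to 2000 UMIs. A UMI of Il1b was then present in 94.7% of 226 mature distraction cells (90.9 to 97.2) and in 98.3% of 119 mature sham cells (94.1 to 99.8). In progenitors it was present in 12.4% of 97 distraction and 24.0% of 50 sham cells. B-gated cells, which should lack the gene, had a UMI in 5.92% of 878 distraction and 6.53% of 1777 sham cells, at median depths before thinning of 3615 and 2971.5 UMIs. The interval of the share lay above that of B-gated cells at every stage except distraction progenitors, whose interval (6.56 to 20.6) overlapped it. The median mature cell held 26 Il1b UMIs in the distraction and 30 in the sham library, with quartiles of 12.0 and 48.8 in the distraction and 14.5 and 48.0 in the sham library, so the libraries overlapped.

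**Figure D1:**
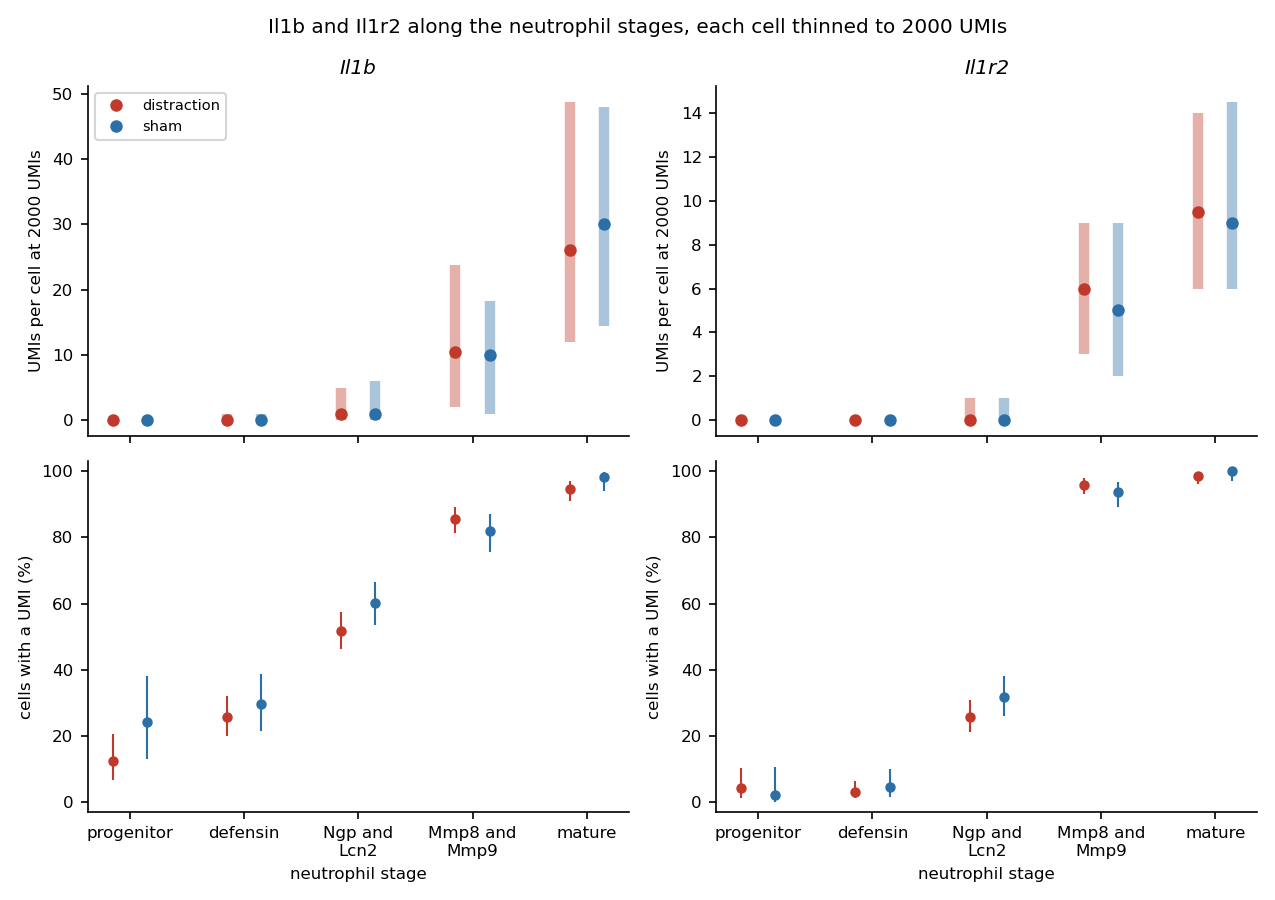
Il1b (left) and Il1r2 (right) in cells thinned to 2000 UMIs, by neutrophil stage, distraction left of sham. Upper panels show the median (point) and the range from the lower to the upper quartile (bar) of UMIs per cell, lower panels the percent of cells with a UMI and its exact binomial interval; both genes climb at the Mmp8 and Mmp9 stage, Il1r2 to 96.0% of distraction and 93.6% of sham cells.

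Monocyte-gated cells were the other large source of Il1b. The 245 distraction monocytes stood at 10525 CPM and the 218 sham monocytes at 8505 CPM, a ratio of 1.24 (1.22 to 1.26), and they held 49.6% and 51.5% of each library's Il1b UMIs. The neutrophil lineage held 35.2% in the distraction and 30.9% in the sham library. Macrophage-gated cells, with the complement genes C1qa to C1qc among their markers, stood at 6268 CPM in 25 distraction and 5192 CPM in 20 sham cells, though 1 cell held 27.0% and 35.2% of those counts. At 2000 UMIs the gene was detected in 89.8% of distraction and 88.9% of sham monocytes, with medians of 19 and 14.5 UMIs. For monocytes and macrophages together the ratio was 1.22 (1.20 to 1.24), and 1 of the pathway genes below but no member was called there. In this joint class 1.7% of all genes were called, and in monocytes and macrophages taken singly 1.62% and 31%.

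Mature neutrophils thus had the highest Il1b CPM in each library, 1.54-fold above monocytes in the distraction and 1.97-fold in the sham library. Monocytes, the Mmp8 and Mmp9 stage, macrophages, the Ngp and Lcn2 stage and class II-rich cells followed in this order in both libraries. This order is by share of a class's UMIs. Monocytes were deeper, at medians of 12522 and 11191 UMIs against 2612.5 and 2696 in mature cells. Before thinning, monocytes with an Il1b UMI held a median of 143.5 in the distraction and 88 in the sham library. Mature cells with a UMI held 35 and 36, so by count per cell monocytes were higher. The class II-rich cells, gated by dendritic cell and MHC class II genes, stood at 1359 CPM (distraction) and 1826 CPM (sham), with 20.6% and 22.3% of the counts in 1 cell. Among distraction classes of at least 10 cells, the defensin stage (341 CPM), fibroblasts (294), progenitors (192) and erythroid cells (83.5) came next. Below them the intervals of eosinophil, mast and basophil, osteoblast, endothelial and B-gated cells overlapped in the distraction library, all between 27.3 and 42.3 CPM.

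**Figure D2:**
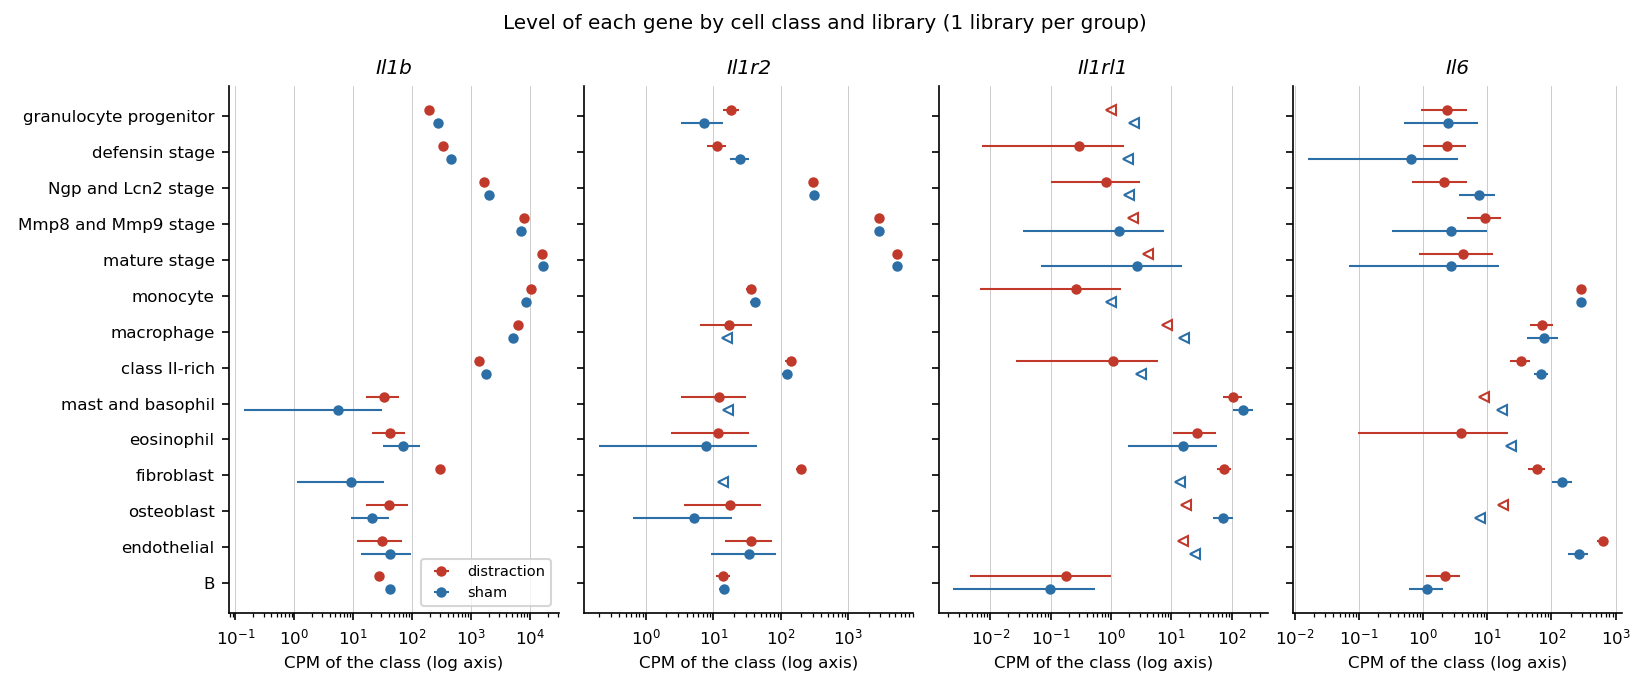
CPM of the 4 genes (log axes, a separate scale for each gene) in 14 gated classes, distraction above sham, with exact Poisson intervals; an open triangle marks a class without a UMI, at the level of 3 counts. Il1b and Il1r2 peak in mature neutrophils and Il1rl1 in mast and basophil cells of both libraries. Il6 peaks in monocytes in the sham library and in endothelial cells in the distraction library, where 1 cell held 86.7% of the count.

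Il1r2, the decoy receptor gene, was largely a gene of late neutrophils. Neutrophil-lineage cells held 84.2% of its UMIs in the distraction and 80.8% in the sham library, against 1.38% and 2.18% in monocytes. Its level in mature cells was 5355 CPM in the distraction and 5248 CPM in the sham library (ratio 1.02, 0.966 to 1.08). In the Mmp8 and Mmp9 stage it was 2890 and 2842 CPM (ratio 1.02, 0.963 to 1.07), and in the Ngp and Lcn2 stage 297 and 314 CPM. Class II-rich cells stood at 140 CPM in the distraction and 124 CPM in the sham library. Monocytes stood at 36.7 CPM in the distraction and 41.4 CPM in the sham library, so mature neutrophils exceeded them 146-fold and 127-fold. The libraries overlapped in the stages and classes whose levels are given above. Over the whole lineage they did not, at 780 CPM in the distraction and 854 CPM in the sham library (ratio 0.913, 0.881 to 0.946). Taken per cell, the lineage mean of Il1r2 was 1.16-fold higher in the distraction library, so the direction turned with the weighting of cells.

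At the early stages Il1r2 was sparse, and its ratio went opposite ways. Progenitors had 55 UMIs in 106 distraction cells, 17 of them in 1 cell, against 9 UMIs in 75 sham cells (18.4 and 7.29 CPM, ratio 2.52, 1.23 to 5.80). The defensin stage had 39 UMIs in each library, at 11.4 CPM in the distraction and 24.9 CPM in the sham library (ratio 0.459, 0.287 to 0.735). In these stages 7.78% and 5.87% of genes were called, and in the Ngp and Lcn2, the Mmp8 and Mmp9 and the mature stage 7.73%, 12% and 18.9%. The other calls of a member by stage were of Il6, which had 8 distraction UMIs and 1 sham UMI in the defensin stage, 5 and 11 in the Ngp and Lcn2 stage and 12 and 2 in the Mmp8 and Mmp9 stage. B-gated cells stood at 14.0 CPM of Il1r2 in the distraction and 14.2 CPM in the sham library, so the early stages lie near background. After thinning, 98.7% of mature distraction cells and all 119 mature sham cells had an Il1r2 UMI, against 1.59% and 2.81% of B-gated cells.

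Ligand and decoy genes were found in the same late cells. At 2000 UMIs both Il1b and Il1r2 were detected in 93.4% of mature distraction and 98.3% of mature sham cells, and in 82.8% and 77.7% of cells in the Mmp8 and Mmp9 stage. In the Ngp and Lcn2 stage both were detected in 18.1% of distraction and 21.9% of sham cells, with Il1b alone in 33.7% and 38.2% and Il1r2 alone in 7.67% and 9.87%. In the Mmp8 and Mmp9 stage the reverse held, with Il1r2 alone in 13.2% and 16.0% and Il1b alone in 2.76% and 4.26% of cells. In both libraries cells with Il1b alone thus outnumbered those with Il1r2 alone up to the Ngp and Lcn2 stage, and the order was the other way at the later stages.

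Il6 lay mostly in monocytes. Cells left out as of mixed lineage held 15.2% of its distraction and 8.82% of its sham UMIs, and cells with no gate 12.9% and 6.04%. Monocytes held 56.0% of its UMIs in the distraction and 70.0% in the sham library, at 291.3 and 291.1 CPM (ratio 1.001, 0.915 to 1.09), and the libraries overlapped. It was detected in 116 of 245 distraction and 107 of 218 sham monocytes before thinning. At 2000 UMIs a UMI was present in 24.2% of distraction (18.9 to 30.1) and 26.9% of sham monocytes (21.0 to 33.5), against 0.683% and 0.394% of B-gated cells. Over all cells Il6 stood at 62.7 CPM in the distraction and 42.7 CPM in the sham library (1.47-fold, 1.37 to 1.58). Monocytes were 6.07% of distraction and 4.21% of sham cells.

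Other leukocytes held little Il6. The neutrophil lineage stood at 3.23 CPM in the distraction and 3.32 CPM in the sham library, so monocytes exceeded it 90.1-fold and 87.7-fold. Macrophage-gated cells had 25 and 14 UMIs, of which 1 cell held 22 in the distraction and all 14 in the sham library. Class II-rich cells had 31 UMIs in 5 of 137 distraction cells and 66 in 7 of 181 sham cells (33.0 and 68.7 CPM, ratio 0.481, 0.303 to 0.747), where 14.4% of genes were called. Mast and basophil cells had none in either library.

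Within monocytes and macrophages of at least 2000 UMIs, cells with an Il6 UMI also held more Il1b. Their Il1b level was 12320 CPM in 117 distraction cells with Il6 and 8296 CPM in 148 without (1.49-fold), and 9822 CPM in 107 sham cells with Il6 and 6696 CPM in 116 without (1.47-fold). Cells with Il6 were also deeper, at medians of 13817 and 12049 UMIs in the distraction and 13678 and 10276.5 in the sham library. The 2 classes were pooled here, and of all macrophages only 2 of 25 distraction and 1 of 20 sham cells had an Il6 UMI. Macrophages also had less Il1b, at 6268 and 5192 CPM against 10525 and 8505 CPM in monocytes. The parts of depth and of class make-up in the difference were not tested. Of the pathway genes, Ccl2, the monocyte-attracting chemokine gene, was 1.5-fold or more higher in cells with Il6 in both libraries (2.11-fold in distraction, 1.78-fold in sham). Across all genes 1.55% in the distraction and 2.66% in the sham library were higher by that margin.

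Il1rl1 was rare, with 116 UMIs in 46 distraction cells and 79 UMIs in 27 sham cells. Mast and basophil cells held it in both libraries: 35 UMIs in 17 of 26 distraction cells and 28 UMIs in 10 of 15 sham cells (105 and 156 CPM, ratio 0.674, 0.399 to 1.15). In this class 25.6% of genes were called. The basophil protease gene Mcpt8 was present in all 26 distraction and all 15 sham cells of the gate, whereas the mast cell tryptase gene Tpsb2 was in 2 and 1. Cpa3, a mast cell carboxypeptidase gene, was present in 9 distraction and 7 sham cells, and Kit, the stem cell factor receptor gene, in 12 and 7. Since every cell of the gate held Mcpt8, its presence in all cells with Il1rl1 adds nothing. Of the 17 distraction and 10 sham cells with Il1rl1, 7 and 5 held Cpa3. Eosinophils, which also use the receptor, had 7 UMIs in 5 of 35 distraction cells and 2 UMIs in 2 of 32 sham cells. Monocytes had 1 distraction UMI and no sham UMI, and B-gated cells had 1 UMI in each library.

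Stromal cells were few: 93 in the distraction and 59 in the sham library over the fibroblast, osteoblast, mural and endothelial gates. All 9 fibroblast markers were detected in the fibroblast gate of both libraries, and all 10 endothelial markers in the endothelial gate. Of 9 osteoblast markers, 7 were detected in distraction and 8 in sham osteoblasts. In so small a class 33% of all genes differed 1.5-fold or more, and 38.6% in fibroblasts, 46.6% in osteoblasts and 31.6% in endothelial cells, so that a call here says little by itself.

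Il1rl1 had 55 UMIs in 8 of 59 distraction fibroblasts and none in 22 sham fibroblasts, which is at least 5.37-fold higher against a floor of 3 counts over the class (exact lower bound 4.22). The 8 cells held 29, 11, 9, 2, 1, 1, 1 and 1 UMIs, and the highest cell carried 52.7% of the count. Without that cell 26 UMIs remained and the bound was 2.66-fold. After thinning to 2000 UMIs 8 distraction UMIs stood against 0 in sham, a bound of 0.982 that gives no direction. The floor of 3 counts in the 22 sham cells is 13.9 CPM, and the exact upper limit of the sham level was 17.2 CPM. In osteoblasts the libraries were the other way round, with no UMI in 11 distraction cells and 28 in 20 sham cells. All 28 lay in 1 sham cell, in which 4 osteoblast and 3 fibroblast markers were called. Over all stromal cells Il1rl1 stood at 49.7 CPM in the distraction and 38.3 CPM in the sham library (ratio 1.30, 0.809 to 2.12).

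Il6 in stromal cells totalled 202 UMIs in 13 distraction cells and 80 UMIs in 6 sham cells, at 182 and 109 CPM (ratio 1.67, 1.28 to 2.19). The highest cell carried 51.5% of the distraction and 40.0% of the sham count. Without the highest cell of each library the ratio was 1.36, below the 1.5-fold mark. The share of stromal cells with a UMI was 14.0% in the distraction and 10.2% in the sham library.

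By class, most stromal Il6 UMIs of the distraction library lay in endothelial cells, whereas sham endothelial cells and fibroblasts held the same number. Endothelial cells had 120 UMIs in 6 of 21 distraction cells and 32 UMIs in 4 of 14 sham cells (627 and 268 CPM, ratio 2.34, 1.57 to 3.57). A single cell held 104 (86.7%) of the distraction and 23 (71.9%) of the sham count, and without these the ratio was 1.21. After thinning to 2000 UMIs the direction turned, with 9 distraction and 8 sham UMIs and a ratio of 0.770. Fibroblasts had 44 UMIs in 5 distraction cells, 24 of them (54.5%) in 1 cell, and 32 UMIs in a single sham cell (59.9 and 149 CPM, ratio 0.403, 0.250 to 0.656). Without the highest cells the fibroblast counts were 20 and 0, and with cells of 2 lineages kept they were 158 and 32 (ratio 1.30), so the direction turned in both. The mural gate, for pericytes and smooth muscle, had 38 UMIs in 2 distraction cells, 35 of them (92.1%) in 1, and 16 UMIs in 1 of 3 sham cells. Osteoblasts had none in either library. Among classes of at least 10 cells, endothelial cells had the highest Il6 level in the distraction library, a rank that rests on the 1 cell with 104 of their 120 UMIs. In the sham library monocytes did, at 291.1 CPM against 268 CPM in endothelial cells, whose interval (183 to 378 CPM) overlapped theirs.

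**Figure D3:**
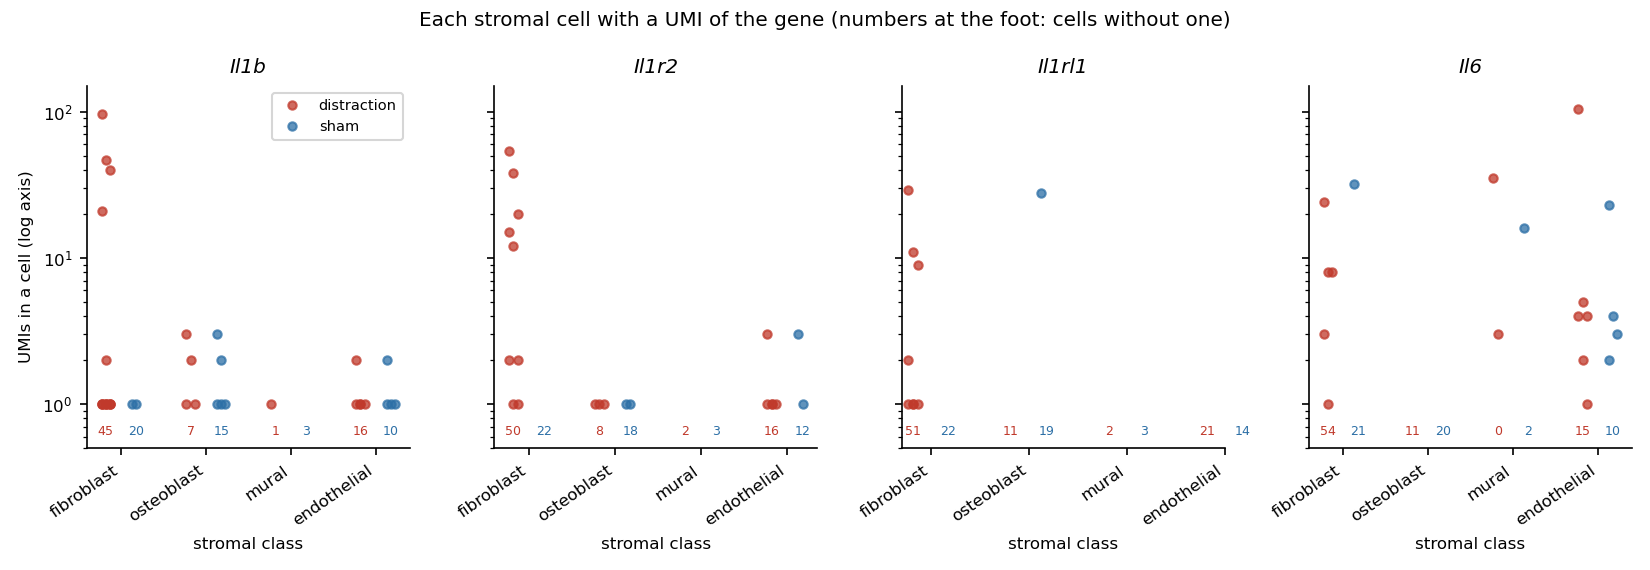
UMIs of each gene in single stromal cells (log axis, 1 point per cell with a UMI), by class, distraction left of sham, with the number of cells without a UMI at the foot. Il1rl1 and Il6 totals rest on 1 to 3 cells per class, such as the endothelial distraction cell with 104 Il6 UMIs and the sham osteoblast with 28 Il1rl1 UMIs.

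Il1b and Il1r2 also appeared in distraction fibroblasts. Il1b had 216 UMIs there against 2 in sham fibroblasts (294 and 9.30 CPM, 31.6-fold, 8.65 to 263), and Il1r2 145 against 0 (at least 14.2-fold against the floor of 3 counts, exact lower bound 11.4). Of these, 207 (95.8%) and 139 (95.9%) lay in 5 distraction cells with 10 or more UMIs of either gene. In those 5 cells the 14 neutrophil markers together made up 34.1 to 160 of 10000 UMIs (median 76.4). The range was 0 to 37.6 (median 5.67) in the other 54 distraction fibroblasts and 2.48 to 23.0 (median 5.26) in the 22 sham fibroblasts. Of the 14 markers, 2 were without a UMI in the 5 cells, likewise 2 in the other 54, and 5 in the sham fibroblasts. Of the 5 cells 2 had 3 or more neutrophil markers called, and their range overlapped that of the other fibroblasts. Neutrophil-lineage cells had medians of 1686 in the distraction and 1474 in the sham library. Without the 5 cells, a choice made after their values were seen, Il1b stood at 14.5 CPM in distraction against 9.30 CPM in sham fibroblasts, and Il1r2 had 6 UMIs against 0. Il1rl1 was still at least 6.23-fold higher without them against the floor of 3 counts (exact lower bound 4.89), since 54 of its 55 UMIs lay in other cells. In osteoblasts and endothelial cells neither Il1b nor Il1r2 exceeded 8 UMIs in a library, although 1 distraction endothelial cell reached 256 neutrophil-marker UMIs per 10000.

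**Figure D4:**
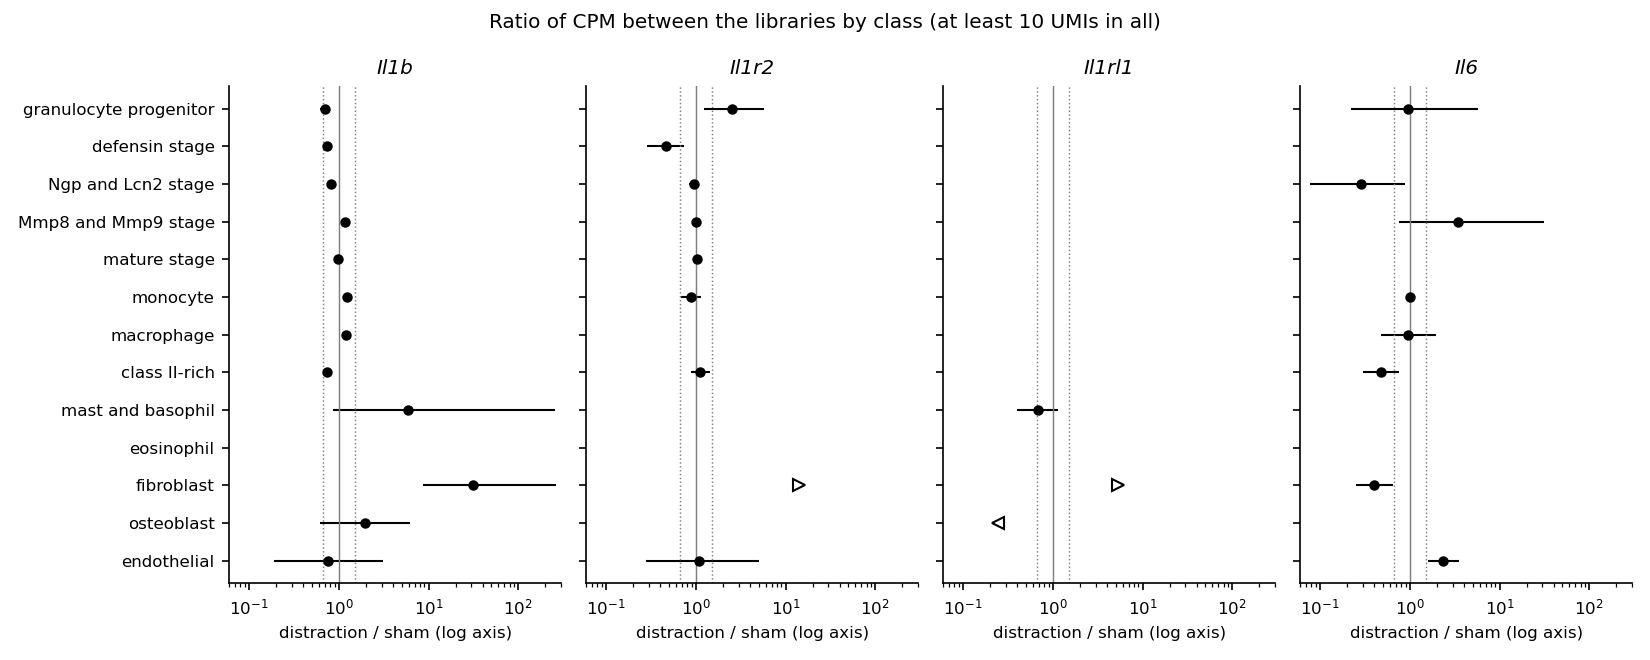
Ratio of CPM in the distraction over the sham library by class (log axis) with its 95% interval, for classes with at least 10 UMIs over both libraries; solid line 1, dotted lines 1.5-fold, open triangles bounds against a library without a UMI. The neutrophil stages and monocytes sit between 0.702 and 1.24 for Il1b, while the stromal classes spread widely.

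The genes around the members were taken as 6 lists of 64 genes, of which 63 were in the tables. In the neutrophil lineage 20 were abundant enough to compare, with 0 higher and 1 lower in the distraction library, where 2.11% of all genes were called. The count was 0 of 22 with cells of 2 lineages kept and 3 of 23 after thinning, settings at which the share of all genes was not computed. The lower one was Cxcl3, a neutrophil-attracting chemokine gene, at 59.7 CPM in distraction and 92.7 CPM in sham (ratio 0.643, 0.572 to 0.724). Il1rn, the gene of the natural antagonist of the interleukin 1 receptor, stood at 316 and 402 CPM there (ratio 0.786). The list of early response genes had a median log2 ratio of -0.29, against -0.05 over all genes of the lineage.

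In mature neutrophils 27 pathway genes were compared, with 1 higher and 2 lower. The higher one was the inflammasome sensor gene Nlrp3, at 355 CPM in distraction and 209 CPM in sham (ratio 1.70, 1.31 to 2.22). Cxcl1 stood at 103.5 and 281 CPM (ratio 0.369) and Cxcl3 at 295 and 481 CPM (ratio 0.613). The antagonist gene Il1rn was at 2164 and 2511 CPM, a ratio of 0.862 (0.794 to 0.936), in the same cells that carry the ligand and the decoy receptor. With 3 of 27 called, the list lies near or below the share of all genes called at this stage.

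In monocytes and macrophages 29 pathway genes were compared, with 0 higher and 1 lower, where 1.7% of all genes were called. The count was 3 of 29 as a mean of per-cell levels and 7 of 31 after thinning, settings at which the share of all genes was not computed. Ccl2 stood at 3289 CPM in distraction and 5234 CPM in sham (ratio 0.628, 0.614 to 0.643). Among those short of the mark, Cxcl1 was at 5258 and 3596 CPM (ratio 1.46), Nlrp3 at 376 and 286 CPM (ratio 1.32), Clcf1, a cytokine gene of the interleukin 6 family, at 225 and 161 CPM (ratio 1.40) and Il1rn at 513 and 676 CPM (ratio 0.759). The early response list had a median log2 ratio of 0.12, the inflammasome list 0.06 and the signalling list 0.00, against -0.01 over all genes of the class.

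In fibroblasts 19 pathway genes were compared, with 2 higher and 1 lower, where 38.6% of all genes were called. Cxcl2, a neutrophil chemokine gene, stood at 768 CPM in distraction and 83.7 CPM in sham (9.17-fold, 5.75 to 15.6), but the 5 cells with 10 or more Il1b or Il1r2 UMIs held 86.2% of its distraction count, and without them the ratio was 1.499 (0.889 to 2.66). Jak2, a kinase gene of the interleukin 6 pathway, was at 165 and 93.0 CPM (ratio 1.77, 1.10 to 3.003). Cxcl3 was at 61.3 and 107 CPM (ratio 0.573). In all stromal cells 18 were compared, with 6 higher and 1 lower, in a class where 33% of all genes were called and the median log2 ratio was 0.23.

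Receptor and ligand genes below those minimums, picked out after their values were seen, had few UMIs. Il1r1 had 34 UMIs in distraction and 26 in sham monocytes (9.04 and 8.60 CPM), and 6 UMIs in distraction and 0 in sham fibroblasts. Il33, the ligand gene for Il1rl1, had 8 distraction UMIs and 1 sham UMI in endothelial cells and 4 and 0 in fibroblasts. Il6r, the interleukin 6 receptor gene and the exception, was at 126 CPM in distraction and 154 CPM in sham mature neutrophils, and 62.5 and 59.5 CPM in monocytes. The shared signalling chain gene Il6st was at 24.5 and 18.6 CPM in fibroblasts and 41.8 and 100 CPM in endothelial cells. These levels rest on few UMIs, as 3 UMIs amount to 4.08 and 13.9 CPM in fibroblasts and 15.7 and 25.1 CPM in endothelial cells.

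The genes most like each member were ranked by the correlation of log2(CPM + 10) over 21 class and library points with at least 30 cells, among 5981 genes. The points share libraries, and both libraries give a point for most classes, so the correlations are descriptions. For Il1b the nearest was the chemokine gene Ccl3 (r = 0.97), followed by Glrx, the pattern receptor gene Tlr2, Slpi and the lectin gene Clec4d (0.96 each). For Il1r2 they were LOC100360218 (0.97), the taurine transporter gene Slc6a6, RGD1304884, the metalloprotease gene Adam8 and Mgam (0.94 to 0.95). For Il6 they were Sowahc, the cholesterol transporter gene Npc1, Tnfaip2, the growth factor gene Areg and Anxa4 (0.94 to 0.95). For Il1rl1, Ror2 (0.96) and 4 genes near 0.90 headed the ranking, which rests largely on the 1 fibroblast point, because mast and basophil cells fell short of 30.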

How the data were processed

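Single cells of 1 distraction and 1 sham suture library were captured on BD Rhapsody cartridges, per the labels. The authors deposited whole-number molecule counts per gene and cell with no scaling, and per the file headers the pipeline was BD WTA Rhapsody Analysis Pipeline, version 1.5.1. Per the submitters' processing notes, Rnor_6.0 and Seurat 3.6 were named with no role. Neither an annotation release nor a cell-calling rule is named in those notes or headers.

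Deposited depth was 32078960 UMIs over 4889 distraction cells and 29924342 UMIs over 5351 sham cells. Cells with at least 500 UMIs, 200 genes and under 25% mitochondrial UMIs were kept. A marker counted at 2 or more UMIs and a level above its mean over all cells, a gate needed 3 markers, and a cell took the class with the largest share of its markers. Cells in which another lineage reached 0.5 of that share (55 distraction, 91 sham) were left out, which stands in for a doublet caller. Vcan, Fn1 and Klf4 did not count as monocyte markers in stromal-gated cells. Of 173 markers, 8 are not in the tables.

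Ratios carry exact conditional binomial and shares exact Clopper-Pearson intervals of 95%. The ratio and interval were run on counts simulated with the Poisson error that the interval assumes. This run cannot cover spread between cells or counts held by 1 cell. A count of 0 was set to a floor of 3 counts over the class. Thinning used seed 1. Named genes were the 4 members and, of each pathway list and class, up to 4 with the largest ratio at 50 CPM and 30 UMIs. The members, lists and markers were chosen with earlier results of these data known. Alternatives were other cell filters, gates, weightings and depths. Python 3.11.15, numpy 2.4.6, scipy 1.17.1, pandas 2.3.3 and matplotlib 3.10.9 were used.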

Additional observations from a re-analysis of the deposited data

Results flagged for a closer look

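Some members differed in opposite directions between the libraries in different classes, each by 1.5-fold or more with an interval on 1 side of 1. None of these differences between classes was tested, and each rests on few UMIs or cells. Il1r2 had a distraction over sham ratio of 2.52 in granulocyte progenitors, 0.459 in the defensin stage and at least 14.2 in fibroblasts. The fibroblast value is against a floor of 3 counts (exact lower bound 11.4), and 5 distraction cells held 95.9% of that count. Without them the bound was 0.692, which gives no direction. With all fibroblasts thinned to 2000 UMIs the bound was 1.84 (15 distraction UMIs, 0 sham). Il6 had a ratio of 0.285 in the Ngp and Lcn2 stage (5 distraction and 11 sham UMIs), 0.481 in class II-rich cells and 0.403 in fibroblasts, but 2.34 in endothelial cells. Against a floor of 3 counts, Il1rl1 was at least 5.37-fold higher in distraction fibroblasts (exact lower bound 4.22). By the same floor it was at least 4.14-fold lower (ratio at most 0.242, exact upper bound 0.318) in distraction osteoblasts, where a single sham cell held all 28 UMIs.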

How the results depend on the processing

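Log2 ratios are distraction over sham. No paired analysis was possible because each group has 1 library. Il1b in the neutrophil lineage (-0.13) was -0.20 with 1 marker more and -0.086 with cells of 2 lineages kept, and turned to 0.23 as a mean of per-cell CPM and 0.15 after thinning to 2000 UMIs. Il1r2 in the lineage (-0.13) was -0.072 with cells of 2 lineages kept, 0.22 as a per-cell mean and 0.053 after thinning. Il1b in monocytes and macrophages (0.29) was 0.52 as a per-cell mean and 0.46 after thinning. Il1rl1 in fibroblasts (2.42, a bound) was 1.41 without the highest cell, and after thinning (8 distraction UMIs, 0 sham) the bound of -0.026 gives no direction. Il6 in stromal cells (0.74) was 1.31 with cells of 2 lineages kept, 0.19 as a per-cell mean, 0.34 after thinning and 1.29 when Vcan, Fn1 and Klf4 were counted as monocyte markers, an alternative chosen after seeing the data. Reversals were found for Il6 in fibroblasts (-1.31), at 0.38 with cells of 2 lineages kept and 0.90 without the highest cell, and for Il6 in endothelial cells (1.23), at -0.38 after thinning. Pathway genes past 1.5-fold were 0 of 22 in the lineage with cells of 2 lineages kept and 3 of 23 after thinning, against 1, and 3 of 29 as a per-cell mean and 7 of 31 after thinning in monocytes and macrophages, against 1. The share of all genes past that mark was not computed at these settings. At full depth, a setting added later, 43.7% of distraction and 45.4% of sham monocytes and macrophages had an Il6 UMI, against 22.3% and 25.6% thinned. Apart from the settings built to use fewer UMIs or cells, the cause was not tested. In the other 37 recomputed values for these results the value stayed within its interval or within 1.5 times the count. Il1rl1 gave no per-cell mean ratio in fibroblasts, where sham is at 0, and no value in osteoblasts without the highest cell or thinned. Pathway counts and shares of cells were not run without the highest cell. Depth limits Il1rl1 most, at 116 distraction and 79 sham UMIs in all.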

Other observations

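The cell with the most Il6 in either library met no gate. This distraction cell had 117 Il6 UMIs of 6539 in all, 5.98% of its library's Il6, no Il1b UMI, and 2 mural and 2 monocyte markers called, each 1 short of a gate. The next, also in the distraction library, had 111 Il6 and 263 Il1b UMIs among 28579 and was left out because 7 monocyte and 5 fibroblast markers were called in it. In the sham library the highest cell, with 66 Il6 UMIs and no Il1b, was likewise left out, with 6 macrophage, 4 eosinophil and 4 fibroblast markers. Cells outside the gated classes therefore held 12.9% plus 15.2% of distraction and 6.04% plus 8.82% of sham Il6 UMIs, as cells with no gate and cells of mixed lineage.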
